A study of Homo sapiens with 8 samples.

Results

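The genes described here are 42 genes of the ATF4 and unfolded protein response programme, listed by gene name, among 18955 genes in a table of single-cell UMI counts (a UMI marks 1 captured mRNA molecule). All 42 were in the table. They fall into 4 groups by role: an amino acid arm of 14 genes for amino acid synthesis, uptake and tRNA charging, 9 ATF4 regulators and stress targets, an ER chaperone arm of 13 genes for folding in the endoplasmic reticulum (ER), and 6 ER sensors and degradation genes. The cells were SUM159, an established triple-negative breast cancer cell line with a lentiviral ClonTracer barcode library, profiled in 8 libraries of 459 to 1024 cells. All cells carried the barcode library. The pre-treatment library held cells that had received no drug, and the other libraries held cells passaged up to 18 times in DMSO vehicle, paclitaxel (0.6 nM, a microtubule stabiliser), palbociclib (160 nM, a CDK4 and CDK6 inhibitor), JQ1 (100 nM, an inhibitor of BET bromodomain proteins; libraries JQ1-A and JQ1-B), JQ1+paclitaxel or JQ1+palbociclib, at the same doses.

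Replicate cultures were pooled in equal numbers before encapsulation, so each library is 1 sample and p-values measure the spread between libraries. No treatment was repeated within an experiment. The spread comes from pre-treatment beside DMSO and from JQ1-A beside JQ1-B, which were labelled as different experiments. In the fit without interactions it also holds any departure from additive drug effects. It is therefore not a spread between replicates of a treatment within an experiment. The JQ1+palbociclib pool lacked 1 culture, which was lost. DMSO, paclitaxel, JQ1-A and JQ1+paclitaxel were labelled as 1 experiment and palbociclib, JQ1-B and JQ1+palbociclib as another, with no vehicle library among those labelled so. In palbociclib alone against DMSO, drug and experiment therefore cannot be told apart. Libraries held 10621159 to 24240835 UMIs. The mesenchymal markers VIM and CD44 were high in all 8 libraries (3279 to 4502 and 228 to 437 CPM, counts per 1000000 UMIs), ERBB2 was at 5.32 to 12.0 CPM, ESR1 had at most 3 UMIs and PGR at most 2 UMIs in a library. Genes of the cell cycle (the S and G2/M lists of Seurat) took 0.614 to 0.810% of UMIs in the pre-treatment, DMSO and paclitaxel libraries and 0.395 to 0.480% in the other 5, and mitochondrial genes 3.71 to 3.83% against 4.75 to 7.03%. Both shares thus moved with JQ1 and palbociclib exposure, and their part in the results was not tested beyond the cell subsets given here. Across libraries 13 cell barcode sequences were shared, by 26 of 5738 cells.

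The unfolded protein response is the reaction of a cell to misfolded protein in the ER. Sensors in the ER membrane start it: IRE1 (gene ERN1), which splices the mRNA of the transcription factor XBP1, ATF6, which is cut to release a transcription factor, and PERK (EIF2AK3), which phosphorylates the initiation factor eIF2. Phosphorylated eIF2 slows translation in general but favours translation of ATF4, a transcription factor that induces amino acid synthesis and transport genes. Other eIF2 kinases reach ATF4 from amino acid shortage, haem shortage or viral RNA, which is why the common branch is called the integrated stress response. Because ATF4 is controlled largely at translation, its mRNA level is not a measure of its activity. In secretory and fast-growing tumour cells both arms are in steady use, since protein synthesis needs amino acids and secreted proteins need chaperones.

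The promoters of these genes are shown as a description, and no expression value was used to choose the motifs. The members were listed and grouped by known pathway role. Motif counts that differ between the arms are therefore not independent support for the grouping. Promoter windows of 250 bases before to 50 after the start came from RefSeq (GRCh38.p14) for 39 of the 42 members, with none for PSPH, SHMT2 and PDIA3. Both strands were searched for the ER stress response element (ERSE, CCAAT and CCACG with 9 bases between), for ERSE-II (ATTGG and CCACG with 1 base between) and for a core of the C/EBP-ATF response element bound by ATF4 (TGATGNAA). ERSE and ERSE-II share CCACG, and no member had both. ERSE lay in 6 of 12 chaperone promoters (HSPA5, HSP90B1, CALR, CANX, PDIA6, CRELD2) and in XBP1, and in none of the 12 amino acid arm or 9 ATF4 regulator promoters, against 0.0916% of all 27305 genes with a window. ERSE-II lay in SDF2L1, HYOU1 and HERPUD1, against 0.0696% of genes. TGATGNAA lay in 7 of 12 amino acid arm promoters (ASNS, SLC3A2, SLC7A1, SLC1A5, CARS, GARS, AARS), in CHAC1 and HERPUD1 and in none of the 12 chaperone promoters, against 4.46% of genes. A match is a description of letters and not of a bound site.
Stretches upstream of the start follow on the gene's strand, with the motif, or its reverse complement, in capitals. Each matched its own chromosome in GRCh37 exactly once, at the position given in brackets, and the other chromosomes were not searched.
HSPA5 (chr9:128003650-128003708, minus strand): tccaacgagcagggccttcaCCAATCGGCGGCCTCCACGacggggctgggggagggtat
CRELD2 (chr22:50312182-50312240, plus strand): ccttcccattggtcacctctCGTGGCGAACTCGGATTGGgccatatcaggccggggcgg
CALR (chr19:13049178-13049236, plus strand): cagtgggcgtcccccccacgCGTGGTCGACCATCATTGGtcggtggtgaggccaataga
XBP1 (chr22:29196571-29196629, minus strand): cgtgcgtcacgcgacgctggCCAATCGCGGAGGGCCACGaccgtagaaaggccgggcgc
SDF2L1 (chr22:21996383-21996433, plus strand): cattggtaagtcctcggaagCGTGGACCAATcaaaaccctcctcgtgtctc
HYOU1 (chr11:118927965-118928121, minus strand): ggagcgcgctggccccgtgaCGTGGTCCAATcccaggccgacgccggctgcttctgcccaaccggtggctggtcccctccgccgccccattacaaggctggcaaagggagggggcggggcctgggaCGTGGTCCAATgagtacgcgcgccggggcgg
HERPUD1 (chr16:56965917-56965967, plus strand): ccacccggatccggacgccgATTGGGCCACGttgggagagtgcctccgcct
ASNS (chr7:97501761-97501808, minus strand): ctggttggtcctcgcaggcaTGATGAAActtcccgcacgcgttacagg
GARS (chr7:30634441-30634488, plus strand): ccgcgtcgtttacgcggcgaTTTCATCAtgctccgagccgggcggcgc

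Levels below are CPM scaled by the TMM library size, because scaling by library totals alone moved the median gene by -0.24 (log2) in JQ1-A over DMSO and by -0.26 in JQ1+paclitaxel over paclitaxel. Under TMM these medians were -0.005 and -0.009. Levels are listed in 1 order throughout: pre-treatment, DMSO and paclitaxel first, then JQ1-A and JQ1+paclitaxel, then palbociclib alone, and last JQ1-B and JQ1+palbociclib. Of the 42 members, 38 had at least 5 CPM in at least 2 libraries and were tested, and all 38 were at 5 CPM or more in all 8 libraries. CHAC1, SESN2, VLDLR and EIF2AK3 stayed below that limit. CHAC1, a glutathione-degrading ATF4 target, was at 1.69, 1.02, 0.656, 0.467, 0.309, 0.242, 0.781 and 0.385 CPM, from 4 to 26 UMIs per library, too few for a comparison. SESN2 had 31 to 63 UMIs per library, VLDLR 9 to 32 and EIF2AK3, the PERK gene, 26 to 69.

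**Figure D1:**
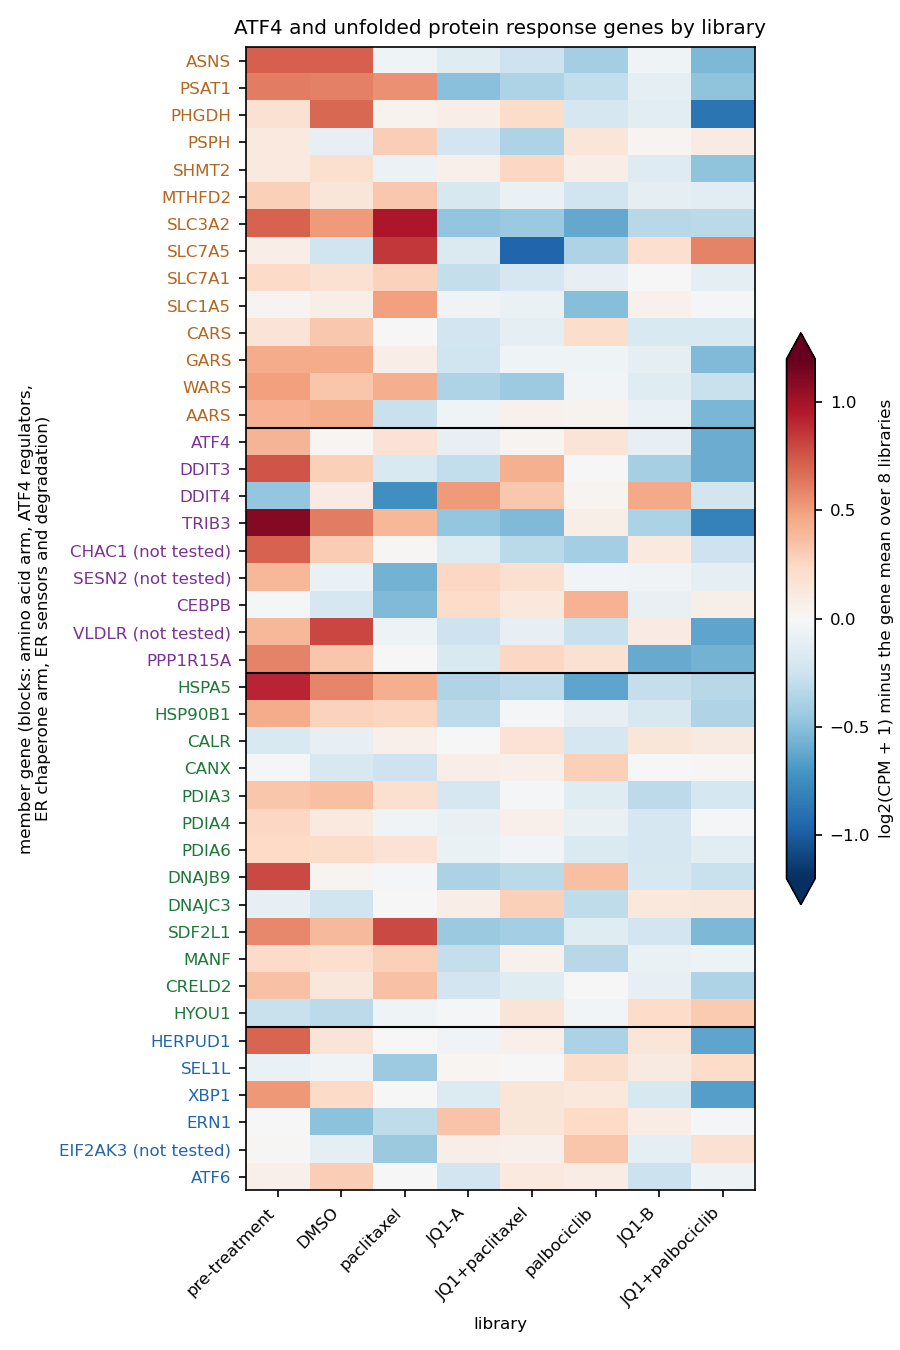
Level of the 42 members (rows, in 4 blocks) in the 8 libraries (columns), as log2(CPM + 1) minus the mean of the gene over libraries; red is above and blue below that mean. ASNS, PSAT1, SLC3A2, TRIB3, HSPA5 and SDF2L1 are red in the pre-treatment and DMSO columns and blue in the 4 JQ1 columns, apart from an ASNS value near its mean in JQ1-B, while HYOU1 is highest in JQ1-B and JQ1+palbociclib.

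The first comparison asked how JQ1 exposure (4 libraries against 4) moved these genes, in an edgeR quasi-likelihood fit over all 9288 tested genes with palbociclib and paclitaxel as further terms. TRIB3, PSAT1, SLC3A2, WARS, HSPA5 and SDF2L1 were lower with JQ1, by 0.64 to 1.15 on the log2 scale, and 2 chaperone genes, HYOU1 and DNAJC3, were higher by 0.35 and 0.33. In all, 14 of 38 members were lower and 2 higher at a Benjamini-Hochberg adjusted p under 0.05. Over all genes tested 37.6% were called (19.7% lower and 17.8% higher). The median log2 fold change was -0.32 over the 38 members and -0.003 over all genes. In 6 members every JQ1 library was below every library without JQ1 (CARS, WARS, TRIB3, DNAJB9, SDF2L1 and CRELD2), against 12.8% of all genes, and in HYOU1 and DNAJC3 every JQ1 library was above, against 11.7%. The count moved with single libraries, as did the share over all genes: 16 members were called in all, 4 without JQ1-A (19% of all genes), 6 without JQ1-B (21.9%), 7 without pre-treatment (21.4%), 9 without DMSO (24.6%) and 20 without palbociclib (45.7%). With experiment as a model term, and over the 3 pairs matched by experiment and partner drug, TRIB3 alone stayed called, where 4.98% and 3.94% of all genes were. DESeq2 called 16 members lower and 2 higher, the latter DNAJC3 and DDIT4 but not HYOU1.

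**Figure D2:**
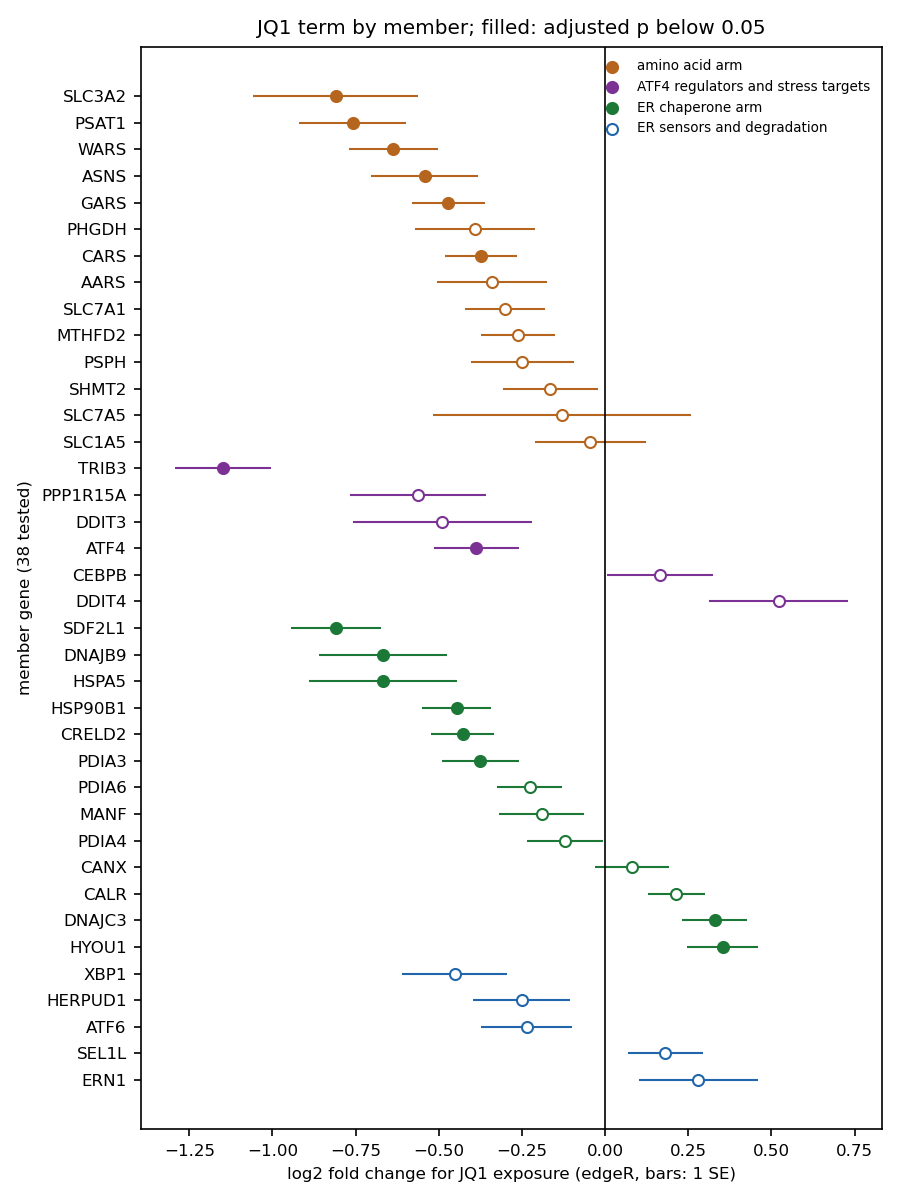
Log2 fold change for JQ1 exposure with 1 SE (x axis) for each of the 38 tested members (y axis), coloured by group; filled points have an adjusted p below 0.05. All 14 amino acid arm points lie below 0, and the chaperone arm spans from SDF2L1 at -0.81 to HYOU1 at 0.35.

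The amino acid arm had 6 of 14 genes lower and none higher, against 19.7% lower and 17.8% higher over all genes. The fold changes of all 14 were below 0, with a median of -0.36, against 4661 of 9288 genes below 0. The called genes covered asparagine synthesis, serine synthesis, transport and tRNA charging. SLC3A2 (chr11:62623476-62656352, GENCODE gene bounds on GRCh37), the heavy chain that carries the amino acid exchangers SLC7A5 and SLC7A11 to the cell surface, was at 80.0, 69.7, 96.4, 34.7, 35.6, 31.5, 38.5 and 38.8 CPM. The 4 JQ1 libraries and palbociclib lay close together at less than the level of any of the first 3 libraries, and the log2 fold change for JQ1 was -0.81 ± 0.25 (SE, edgeR adjusted p = 0.0338).

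PSAT1 (chr9:80912041-80945009), the aminotransferase of serine synthesis, had the same shape, at 35.2, 35.1, 33.6, 15.7, 17.3, 18.3, 21.0 and 15.9 CPM (-0.76 ± 0.16, edgeR adjusted p = 0.00891). PHGDH, the first enzyme of that pathway, was at 19.9, 28.8, 18.0, 18.4, 20.4, 15, 15.8 and 9.02 CPM and was not called (-0.39 ± 0.18, edgeR adjusted p = 0.12). So within serine synthesis PSAT1 passed the test for JQ1 and PHGDH did not, and the difference between them was not tested. ASNS, asparagine synthetase, whose promoter is printed above, was at 17.9, 17.8, 10.1, 9.35, 8.66, 7.68, 10.1 and 6.88 CPM (-0.54 ± 0.16, edgeR adjusted p = 0.0299). Here paclitaxel alone sat with the JQ1 libraries, unlike in PSAT1 and SLC3A2.

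The tRNA synthetases, which ATF4 induces as a set, were called lower in 3 of 4 cases, where 19.7% of all genes were. WARS (tryptophan) was at 30.7, 27.4, 29.5, 16.4, 15.6, 21.0, 19.4 and 17.7 CPM (-0.64 ± 0.13, edgeR adjusted p = 0.00864). GARS (glycine) was at 88.3, 88.3, 68.2, 54.3, 62.2, 62.2, 59.8 and 44.2 CPM (-0.47 ± 0.11, edgeR adjusted p = 0.0129). CARS (cysteine) was at 22.9, 25.7, 20.3, 17.2, 18.7, 23.7, 17.7 and 17.7 CPM (-0.37 ± 0.11, edgeR adjusted p = 0.0279). The 3 genes differed in the palbociclib library, which was near the JQ1 level in GARS and near the DMSO level in CARS. AARS (alanine) had -0.34 ± 0.16 and was not called (edgeR adjusted p = 0.13). The arginine and lysine carrier SLC7A1 was at 30.7, 29.7, 31.8, 21.2, 22.6, 24.3, 26.1 and 24.2 CPM and was not called (-0.30 ± 0.12, edgeR adjusted p = 0.0793). MTHFD2 and SHMT2 of mitochondrial folate metabolism, PSPH and the glutamine carrier SLC1A5 had log2 fold changes of -0.26 to -0.04 and were not called, and neither was SLC7A5 (-0.13 ± 0.39).

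Among the ATF4 regulators the mRNA of ATF4 itself (chr22:39915700-39918688) was at 220, 169, 188, 155, 170, 185, 156 and 110 CPM, with a fold change for JQ1 of -0.39 ± 0.13 (edgeR adjusted p = 0.0427). The library groups overlapped, and JQ1+palbociclib alone stood well below the rest. TRIB3 (chr20:343479-378203), a pseudokinase induced by ATF4 and CHOP that dampens their activity, was at 52.0, 36.8, 31.6, 17.0, 16.2, 25.1, 18.1 and 13.1 CPM. Its groups did not overlap, and its fold change of -1.15 ± 0.14 was the largest among the 38 members (edgeR adjusted p = 0.00152) and stayed called in 17 of 17 other processing settings.

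DDIT3 (CHOP), the transcription factor tied to cell death under lasting ER stress, was at 21.8, 15.5, 10.9, 9.95, 17.1, 12.5, 9.21 and 7.91 CPM (-0.49 ± 0.27, edgeR adjusted p = 0.18). PPP1R15A (GADD34), the phosphatase subunit that reverses eIF2 phosphorylation, had -0.56 ± 0.21 (edgeR adjusted p = 0.0599). DDIT4 (REDD1), an mTORC1 inhibitor, went the other way at 0.52 ± 0.21 (edgeR adjusted p = 0.0798), and CEBPB had 0.17 ± 0.16. In this group edgeR called 2 of 6 tested genes, where 37.6% of all genes were called. DESeq2 also called DDIT4 and PPP1R15A, where 37.2% of all genes were called. The summed level of the 9 genes, in which DDIT4 and CEBPB were above and ATF4, PPP1R15A and TRIB3 below in the mean with JQ1, was at 540 ± 78.3 CPM with JQ1 and 563 ± 69.9 without (SD, n = 4 each).

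In the ER chaperone arm 6 of 13 genes were lower and 2 higher, against 19.7% and 17.8% of all genes. The median fold change was -0.23. The lower genes were the main luminal HSP70 and HSP90 and some of their partners. HSPA5 (BiP), the ER HSP70 that also holds the sensors inactive, was at 186, 148, 133, 76.0, 79.0, 63.0, 80.2 and 77.5 CPM (-0.67 ± 0.22, edgeR adjusted p = 0.0444). The JQ1 libraries and palbociclib lay in a narrow band below the other 3. HSP90B1 (GRP94) was at 268, 238, 235, 158, 195, 184, 172 and 152 CPM (-0.45 ± 0.10, edgeR adjusted p = 0.0127).

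SDF2L1, a partner of the HSPA5 and DNAJB11 cycle with ERSE-II in its promoter, was at 209, 184, 243, 103, 106, 127, 120 and 96.5 CPM (-0.81 ± 0.14, edgeR adjusted p = 0.00382). DNAJB9 (ERdj4), a cochaperone and XBP1 target, was at 19.0, 10.8, 10.4, 7.88, 8.20, 13.8, 9.11 and 8.55 CPM (-0.67 ± 0.19, edgeR adjusted p = 0.0268). In both genes the JQ1 libraries were all below the others, though in DNAJB9 the margin to paclitaxel was small. CRELD2, an ER-resident stress protein, was at 76.5, 65.7, 76.4, 50.7, 53.8, 59.3, 55.6 and 46.0 CPM (-0.43 ± 0.09, edgeR adjusted p = 0.0105). PDIA3 (ERp57), the disulfide isomerase that works with calreticulin and calnexin, was at 148, 151, 135, 102, 115, 106, 94.0 and 102 CPM (-0.38 ± 0.12, edgeR adjusted p = 0.0344).

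HYOU1 (GRP170), the nucleotide exchange factor of HSPA5, was at 13.9, 13.4, 16.3, 16.6, 18.9, 16.5, 19.8 and 21.3 CPM (0.35 ± 0.11, edgeR adjusted p = 0.0326). DNAJC3 (p58IPK), a cochaperone that restrains PERK, was at 19.9, 18.0, 21.5, 22.6, 26.4, 17.1, 23.4 and 23.6 CPM (0.33 ± 0.10, edgeR adjusted p = 0.0304). Both were thus higher in the JQ1 libraries, by margins that were small beside the range within the groups. The lectin chaperones were not called: CALR, calreticulin, was at 253, 269, 301, 286, 325, 250, 319 and 311 CPM (0.21 ± 0.09, edgeR adjusted p = 0.0787), and CANX, calnexin, had 0.08 ± 0.11. PDIA4, PDIA6 and MANF had -0.12 to -0.23 and were not called. Of the genes with ERSE in the promoter, edgeR called HSPA5, HSP90B1 and CRELD2 lower and did not call CALR, CANX, PDIA6 or XBP1, and of those with ERSE-II it called SDF2L1 lower and HYOU1 higher and did not call HERPUD1. DESeq2 differed in XBP1, which it called lower, and in HYOU1, which it did not call.

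No ER sensor or degradation gene was called for JQ1 by edgeR (0 of 5 tested), where 37.6% of all genes were. At an unadjusted p under 0.05 in edgeR were 1 of the 5 and 4485 of 9288 genes. DESeq2 called XBP1. XBP1 was at 65.9, 53.8, 45.8, 40.7, 50.6, 50.2, 40 and 28.6 CPM (-0.45 ± 0.16, edgeR adjusted p = 0.0526). HERPUD1, a scaffold of ER-associated degradation, was at 94.7, 64.7, 57.6, 56.1, 60.4, 44.1, 64.1 and 37 CPM (-0.25 ± 0.15, edgeR adjusted p = 0.20). ERN1, ATF6 and SEL1L had 0.28, -0.24 and 0.18.

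**Figure D3:**
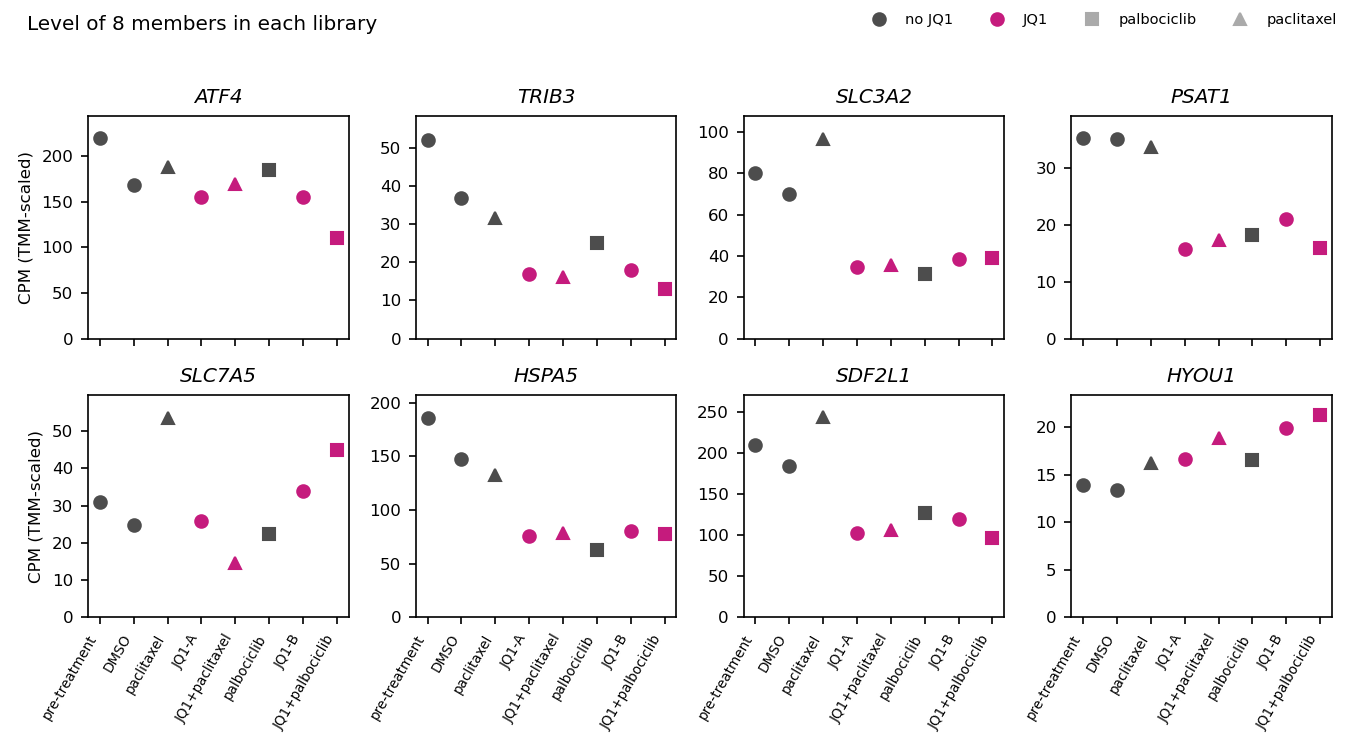
TMM-scaled CPM (y axis, from 0) of 8 members in each library (x axis); pink points are libraries with JQ1 and dark points without, squares palbociclib and triangles paclitaxel. SLC3A2, PSAT1 and HSPA5 show the palbociclib library at the level of the JQ1 libraries, and SLC7A5 runs from 14.7 CPM in JQ1+paclitaxel to 53.4 CPM in paclitaxel.

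The second comparison asked what palbociclib did (2 libraries against 6). No member was called by edgeR (0 of 38), where 0.280% of all genes were, 0.0754% lower. At an unadjusted p under 0.05 in edgeR were 8 of 38 members and 2056 of 9288 genes. DESeq2, which called 5.54% of all genes (2.68% lower), called 4 members, all lower: HERPUD1, ASNS, PHGDH and TRIB3, with log2 fold changes of -0.78, -0.86, -0.80 and -0.63. In edgeR these had adjusted p of 0.0823, 0.0823, 0.109 and 0.109. In HERPUD1, ASNS and PHGDH both palbociclib libraries were below the other 6, against 7.39% of all genes, and in SEL1L, an adaptor of the ER ubiquitin ligase, both were above at 17.9 and 18.0 CPM against 11.1 to 16.6, as in 7.67% of all genes.

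The library of palbociclib alone stood at the level of the JQ1 libraries in both arms. The summed amino acid arm was at 588, 569, 588, 398, 416, 408, 427 and 387 CPM. The 3 libraries with neither drug were at 582 ± 10.9 (SD, n = 3), so palbociclib was at 0.70 times and the 4 JQ1 libraries at 0.70 times that level. The summed chaperone arm was at 1834, 1708, 1775, 1356, 1506, 1380, 1419 and 1385 CPM, with 0.78 times for palbociclib and 0.80 times for JQ1. In the sums, the JQ1 libraries and the palbociclib library were thus below the 3 libraries with neither drug. The library with both drugs lay beside those with 1. For palbociclib alone, which came from the experiment without a vehicle library, drug and experiment cannot be told apart.

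An interaction term tested whether the palbociclib effect differed with JQ1. No member was called by edgeR (0 of 38), where 0.0108% of all genes were. At an unadjusted p under 0.05 in edgeR were 13 of 38 members and 1580 of 9288 genes. DESeq2 called 2 members, HSPA5 and SLC3A2, and 0.366% of all genes. HSPA5 and SLC3A2 had the largest values at 1.39 ± 0.23 and 1.33 ± 0.21 (edgeR adjusted p = 0.0883 each). They were low in palbociclib alone and at about the same level in JQ1-B and JQ1+palbociclib. The fold change of the interaction was above 0 in 11 of 14 amino acid arm genes and 11 of 13 chaperone genes, with medians of 0.40 and 0.35 against -0.011 over all genes. DDIT4 had -0.90 ± 0.28 (edgeR adjusted p = 0.18). The term has 2 residual degrees of freedom and rests on the 1 library of palbociclib alone.

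Paclitaxel (2 libraries against 6) gave no call among members by edgeR or DESeq2 (0 of 38 in each). Over all genes edgeR called 0% and DESeq2 0.0969%. At an unadjusted p under 0.05 in edgeR were 1 of 38 members, ASNS at -0.51, and 395 of 9288 genes. No member had both paclitaxel libraries outside the range of the other 6, against 1.63% of all genes lower and 1.65% higher. The interaction of JQ1 and paclitaxel called 1 member, SLC7A5, against 0.388% of all genes, 0.0323% in the same direction. SLC7A5 (LAT1, chr16:87863629-87903113), the leucine and tryptophan exchanger that pairs with SLC3A2, was at 31.1, 24.8, 53.4, 25.9, 14.7, 22.5, 33.9 and 44.9 CPM. It was at its highest in paclitaxel and at its lowest in JQ1+paclitaxel, and the interaction was -1.96 ± 0.29 (edgeR adjusted p = 0.0327). The call was lost without JQ1-A or without JQ1-B, with values of -1.75 to -2.14 over the libraries left out. The interaction was above 0 in all 6 tested ATF4 regulators and all 5 tested ER sensor and degradation genes. None of these was called by edgeR. It was above 0 in 9 of 13 chaperone genes, 6 of 14 amino acid arm genes and 4437 of 9288 genes over all. This term too has 2 residual degrees of freedom. DDIT3 was at 1.62 (edgeR adjusted p = 0.0636), and its level was 10.9 CPM in paclitaxel and 17.1 in JQ1+paclitaxel.

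Genes of the same pathways that are not members gave 3 further counts for JQ1. Of 25 tested other ATF4 targets 10 were lower and 2 higher, with a median of -0.25. The largest changes were in SESN3, a sestrin (2.75 ± 0.52, from 4 UMIs in pre-treatment), NUPR1, a stress cofactor (-2.29 ± 0.39), and GDF15, a secreted stress cytokine (-1.64 ± 0.46), with edgeR adjusted p of 0.00584, 0.00401 and 0.0257. The other higher gene was SLC38A2, named after its value was seen (0.70). Of 26 tested other ER stress targets 5 were lower and 2 higher, with a median of -0.05, shares no higher than the 19.7% and 17.8% of all genes. The cochaperone DNAJB11 was at -0.79 ± 0.16, the degradation lectin OS9 at 0.67 ± 0.12 and the ER oxidase ERO1L at -0.57 ± 0.10 (edgeR adjusted p = 0.00718, 0.00478 and 0.00513), and the other higher gene was CREB3L2, named after its value was seen (0.51). Of the 12 eIF2, eIF2B and kinase genes 5 were lower and 1 higher. The eIF2B subunits EIF2B3 and EIF2B1 and the eIF2 subunit EIF2S1 were at -0.60, -0.59 and -0.54, and the haem-regulated kinase EIF2AK1, named after its value was seen, at 0.54 ± 0.11.

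The amino acid arm was set against the chaperone arm as the log2 ratio of their summed UMIs. It was -1.64, -1.59, -1.59, -1.77, -1.86, -1.76, -1.73 and -1.84 in the 8 libraries. The JQ1 libraries averaged -1.80 ± 0.06 and the others -1.64 ± 0.08 (SD, n = 4 each), a difference of -0.15, so the amino acid arm was lower relative to the chaperones in the JQ1 libraries, and palbociclib alone was again beside them. Without the most abundant gene of each arm, MTHFD2 and CALR, the difference was -0.08. CALR made up 21.1 to 22.5% of chaperone arm UMIs in JQ1 libraries.

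To see the arms in less and in more cycling cells, cells were divided at the median over all cells of the cell cycle gene share. Below it the amino acid arm was at 606, 470 and 535 CPM in pre-treatment, DMSO and paclitaxel (36 cells in paclitaxel) and at 339 to 373 in the other 5 libraries. Above it the arm was at 580 to 601 CPM in those 3 libraries and at 457 to 501 in the other 5. The chaperone arm was at 1380 to 1966 against 1201 to 1304 CPM below the median and at 1783 to 1813 against 1558 to 1745 above it. Both arms were higher in the more cycling cells of each library except pre-treatment. The cut did not match the libraries within each part, since it put 36 to 709 cells of a library below the median. In the less cycling cells alone edgeR called 10 members for JQ1, against 21.3% of all genes.

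Per cell, UMIs were thinned to 10000 in 5487 cells that passed the filter of the study, which left out 88 shallower cells. The median cell had 5, 5 and 6 amino acid arm UMIs in pre-treatment, DMSO and paclitaxel, 4 in palbociclib and 3 in each JQ1 library. For the chaperone arm the medians were 16, 16 and 17 UMIs and then 11 in JQ1-A and 12 in the other 4. The median cell was thus lower in both arms. Across the cells of a library the arms went together. Pearson correlations were 0.49 in pre-treatment (583 cells), 0.44 in DMSO and 0.18 to 0.42 elsewhere. By rank (Spearman) they were 0.31 in pre-treatment, 0.35 in DMSO and 0.15 to 0.23 elsewhere, with palbociclib at 0.19 against 0.42 by Pearson. These values are a description, since both arms share a cell's UMIs and its ribosomal and mitochondrial content.

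**Figure D4:**
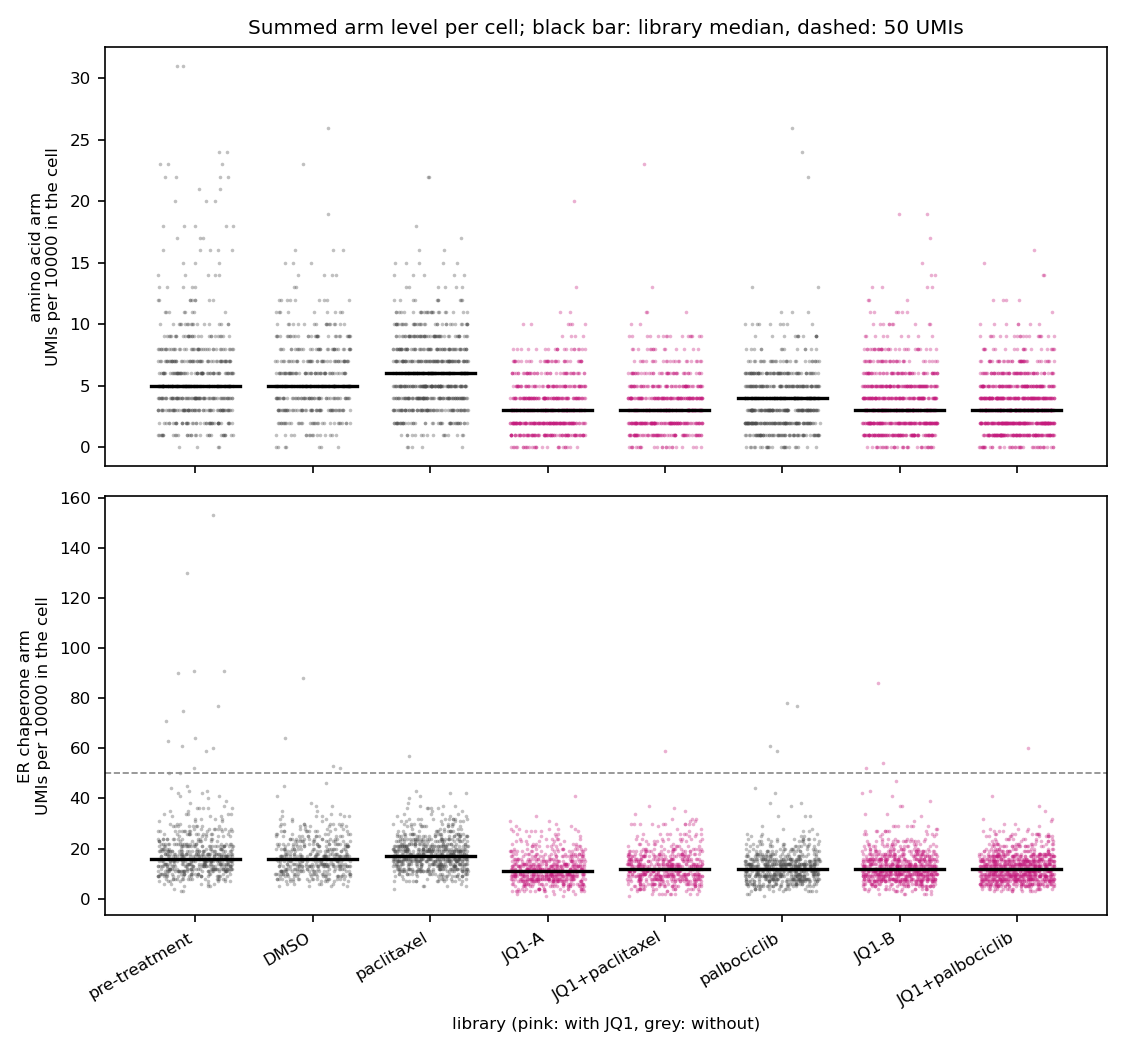
Summed UMIs per 10000 of the amino acid arm (top) and the ER chaperone arm (bottom) in each cell (points) of the 8 libraries; black bars are library medians, pink marks JQ1, and the dashed line is at 50 UMIs. In the bottom panel 16 pre-treatment cells lie at or above the line, up to 153 UMIs, against 0 to 4 cells in each other library.

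Cell-to-cell spread was widest before treatment. The variance over the mean, which is about 1 for pure counting, was 8.84 in pre-treatment for the chaperone arm and 2.39 to 4.08 in the other libraries, and 3.11 against 1.48 to 1.91 for the amino acid arm. The pre-treatment value came from a tail of cells. At 50 or more chaperone UMIs per 10000, a limit set after the distribution was seen, there were 16 of 583 pre-treatment cells (2.74%, exact 95% binomial interval 1.58 to 4.42%, counting error only), 4 of 445 in DMSO (0.899%, 0.245 to 2.29%), 4 of 662 in palbociclib and 3 of 837 in JQ1-B. There was 1 cell in each of paclitaxel, JQ1+paclitaxel and JQ1+palbociclib, and 0 of 650 in JQ1-A, which allows up to 0.462% (3 cells, with an exact upper bound of 0.566%). At 40 UMIs the pre-treatment library had 25 such cells and the others 1 to 7, and at 60 UMIs 12 and 0 to 3. Libraries are single, so no test was made.

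The 16 pre-treatment cells had the members outside the chaperone arm high as well, which the choice of cells did not use. They were compared with the other 567 pre-treatment cells by CPM over summed UMIs. The ER sensor and degradation genes were at 945 CPM against 198, a ratio of 4.77, the amino acid arm at 1791 against 597 (3.0) and the ATF4 regulators at 1487 against 637 (2.34). HERPUD1 was at 670 against 84.4 CPM, SLC3A2 at 553 against 69.6, DDIT3 at 153 against 19.1 and TRIB3 at 336 against 45.7, ratios of 7.94, 7.94, 8.02 and 7.36. DDIT3 UMIs were seen in 11 of the 16 cells and TRIB3 in 15. ATF4 mRNA was at 476 against 231 CPM (2.06), ASNS at 88.0 against 17.0 (5.18) and XBP1 at 189 against 67.4 (2.81). SLC7A1, SLC7A5 and DDIT4 were near the level of the other cells, at ratios of 0.806, 1.33 and 0.98. Among genes that are not members, the other ATF4 targets as a sum were at a ratio of 1.81. The other ER stress targets were at 1.93 and the eIF2, eIF2B and kinase genes at 1.19. The largest ratios among the other ATF4 targets were in GDF15, at 201 against 11.1 CPM, and in CTH. CTH, the last enzyme of cysteine synthesis, named after its value was seen, was at 54.1 against 3.42 (24 UMIs in 6 of the 16 cells). SLC38A2 and ATF5, also named after their values were seen, were at ratios of 0.833 and 0.787. HSPA5, which helped choose the cells, was at 2123 against 136 CPM. The 16 cells had a median of 27464.5 UMIs against 21469, 2.50% mitochondrial UMIs against 3.97% and a cell cycle share of 0.504% against 0.566%. No doublet caller was run, and a part of doublets in this tail was not tested.

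**Figure D5:**
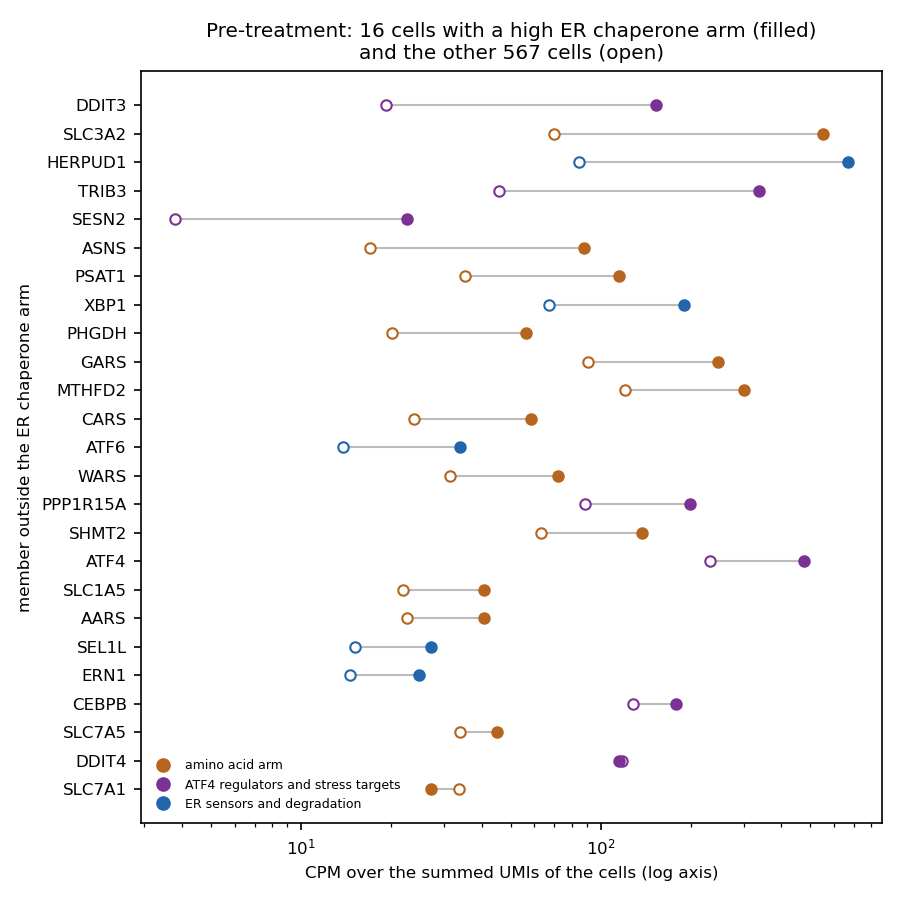
CPM (log axis) of members outside the chaperone arm with at least 10 UMIs in each set, in the 16 pre-treatment cells with 50 or more chaperone UMIs per 10000 (filled) and in the other 567 (open). DDIT3, SLC3A2, HERPUD1 and TRIB3 lie farthest apart, and SLC7A1 and DDIT4 do not move to the right.

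These cells weighed on the library sums. Without the 30 cells at or above 50 UMIs in the 8 libraries, HSPA5 in pre-treatment was at 129 CPM instead of 186 and the chaperone arm at 1658 instead of 1834, and the amino acid arm at 553 instead of 588. The JQ1 term then called 12 members, and HSPA5 (-0.49, edgeR adjusted p = 0.0909), DNAJB9 (-0.47, 0.065), SLC3A2 (-0.71, 0.0594) and ASNS (-0.47, 0.0521) lost their call. TRIB3 stayed at -1.02 (edgeR adjusted p = 0.0013). The share of all genes called in that fit is not given here, so the lower count cannot be read as particular to the members.

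Finally, UMIs of each cell were divided at random into 2 equal parts, the 10% of cells highest in an arm were chosen in 1 part, and their levels were read in the other. In cells high in the amino acid arm, that arm was 1.45 to 2.66 times the level of the other cells over the 8 libraries and the chaperone arm 1.14 to 2.05 times. In cells high in the chaperone arm, that arm was 1.57 to 2.62 times and the amino acid arm 1.32 to 2.09 times. In both cases pre-treatment had the highest ratio of each arm. The eIF2, eIF2B and kinase genes, outside both arms, were at 1.11 to 1.23 times in cells high in the amino acid arm. In cells high in the chaperone arm they were at 1.06 to 1.28 times. In paclitaxel the chaperone arm, at 1.14 times in cells high in the amino acid arm, was near the 1.12 of these genes. The chaperone-high cells had 1.2 to 1.91 times the cell cycle share of the others in every library but pre-treatment (0.978), and 0.801 to 0.863 times the mitochondrial share. The ATF4 regulators as a sum were at 0.987 to 1.12 times in chaperone-high cells of all libraries but pre-treatment, where they were at 1.71.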

How the data were processed

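The authors made the deposited UMI counts per gene and cell from Chromium 3' libraries of SUM159 cells with Cell Ranger and hg19, and Seurat was used for filtering. The counts are not normalized, and a second deposited table names the library of each cell. The members and gene lists were chosen with earlier results of these data known. UMIs were summed per library, since cells are not replicates. Genes at 5 CPM or more in at least 2 libraries (9288 of 18955) were fitted in edgeR 4.0.16 (R 4.3.3) by the quasi-likelihood test, with additive terms for JQ1, palbociclib and paclitaxel (4 residual degrees of freedom) or with the interactions (2), TMM scaling and Benjamini-Hochberg adjustment over all tested genes at 0.05. The fit was tested on simulated data. Genes named outside the members were the 3 called genes of each list with the largest JQ1 change, and others are said to be named after their values were seen. DESeq2 1.42.0, other scalings and filters, single libraries left out, experiment as a term and cells below the median cell cycle share were alternatives. Per-cell values used the 5575 of 5738 cells that met the filter of the study (2000 genes or more, a mitochondrial share of 1 to 15%), thinned to 10000 UMIs (Python 3.11.15, numpy 2.4.6, scipy 1.17.1, pandas 2.3.3). Cell cycle genes were 94 genes from Seurat 5.3.0. No doublet caller was run. Libraries held 10621159 to 24240835 UMIs, and intervals are exact binomial and cover counting error only.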

Additional observations from a re-analysis of the deposited data

Results flagged for a closer look

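Among the 4 libraries without JQ1, the palbociclib library stood far from the other 3 in 2 members. PSAT1 was at 18.3 CPM in palbociclib and at 33.6 to 35.2 in the others. MANF, a secreted ER stress protein, was at 129.6 CPM against 189.0 to 200.4. Each gap to the nearest library made up over 0.83 of the group's range, beyond Dixon's limit at 0.05, which chance passes in about 0.05 of such groups. All 42 members were searched, in the libraries with JQ1 and in those without. Passes by chance are therefore to be reckoned with, and these 2 are not more than such a search can give. The palbociclib library came from the experiment without a vehicle library, so drug and experiment cannot be told apart. The JQ1 effect on SLC7A5 differed between libraries with and without paclitaxel, with an interaction of -1.96 (edgeR adjusted p = 0.0327).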

How the results depend on the processing

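The JQ1 term called 16 members in the reported fit, where 37.6% of all tested genes were called. It called 16 to 18 under another scaling, no filter on low counts, equal UMIs per library or DESeq2 (22.2 to 37.5% of all genes). In the cells passing the filter of the study it called 15 (37.3%). It called 10 in cells below the median cell cycle share (21.3%) and 10 within the JQ1+paclitaxel experiment (30.4%). It called 1 with experiment as a term (4.98%), 1 over 3 matched pairs (3.94%) and 4 to 20 with a library left out (19 to 45.7%). TRIB3 was the member called in both fits with 1 call, and it was called in all 17 settings, PSAT1, SDF2L1 and WARS in 15, HSPA5 in 7 and HYOU1 in 6, and no fold change of the 16 reversed. The fit with experiment has 2 residual degrees of freedom. Palbociclib called 0 members, 4 by DESeq2, 1 (HERPUD1) without a filter on low counts and 0 to 4 with a library left out. Over all genes it called 26 by edgeR and 515 by DESeq2. Paclitaxel called 0 in every setting run. The interaction of JQ1 and palbociclib called 0 members (0.0108% of all genes), and 2 by DESeq2 (0.366%). That of JQ1 and paclitaxel called 1 (0.388%), and 1 by DESeq2 (0.807%). With pre-treatment or DMSO left out, both interactions called more members and also a larger share of all genes. Without JQ1-A or JQ1-B they called no member. The cause of these changes was not tested. The ratio of per-cell amino acid arm medians with JQ1 over without was 0.60, and 0.672 without mitochondrial and ribosomal protein genes. The 0.60 rests on medians in whole UMIs after thinning. For the summed arm per library the ratio of the means was 0.756. Without the cells at 50 or more chaperone UMIs, an alternative chosen after seeing the data, JQ1 called 12, with the share over all genes not given here. A block by replicate number was not fitted, because the labels give no replicate numbers, and the 3 pairs above were matched by experiment and partner drug. Depth limits CHAC1, SESN2, VLDLR and EIF2AK3, which were not tested.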
